A study of Mus musculus with 28 samples.

Results

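Genes of cholesterol synthesis, uptake and export were described in a pair of mouse mammary cell lines through 27 genes chosen by symbol. All 27 matched 1 of the 56748 Ensembl identifiers counted, and all 27 passed the filter on low counts in both comparisons. They comprise 18 enzymes of cholesterol synthesis, 4 genes of sterol sensing (Srebf2, Scap, Insig1, Insig2), the sterol carrier gene Stard4, and Nr1h2, Abca1, Abcg1 and Mylip, which act in sterol export and in the turnover of lipoprotein receptors. Uptake is represented in the list by Mylip alone, and no receptor that takes up lipoprotein is a member. The libraries were total RNA with ribosomal RNA removed. The HC11 line is mammary epithelium, not transformed, and can be brought to lactogenic differentiation in culture. The line 4T1 comes from a mouse mammary tumour. There were 10 HC11 libraries labelled DOX, 10 HC11 libraries labelled DOX + DIP and 8 4T1 libraries labelled DOX, so that all 28 carried the DOX label. The labels spell out neither abbreviation. In HC11 work DIP usually means dexamethasone, insulin and prolactin, and DOX is a common short form of doxycycline. No construct, culture or time is labelled, and each group is a single cell line. The study concerns PAPAS, an antisense RNA from ribosomal DNA repeats. The p-values therefore measure only the spread between these libraries, which may be technical.

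Cells make cholesterol from acetyl-CoA by way of mevalonate, farnesyl diphosphate, squalene and lanosterol. When sterol in the endoplasmic reticulum falls, SCAP escorts the transcription factor SREBP2 (gene Srebf2) to the Golgi, where it is cut and released to raise the genes of the pathway. INSIG proteins hold SCAP back when sterol is plentiful. Liver X receptors such as LXR beta (gene Nr1h2) respond to oxidised sterols and raise Abca1 and Abcg1, which export cholesterol, and Mylip, whose product marks lipoprotein receptors for degradation. Mammary epithelium makes and takes up cholesterol for its membranes and for milk fat.

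Promoter sequence was compared because most enzymes of the pathway are known targets of SREBP2, which acts beside the factors NF-Y and Sp1. RefSeq promoters (GRCm38.p6, 250 bases before to 50 after each listed start) were at hand for 22 of the 27 members, and those of Fdps, Fdft1, Sqle, Stard4 and Abcg1 were not used here. Both strands were searched, and a gene with several listed starts was counted once. The sterol element TCACNCCAC was found in 1 of the 22 members, Hmgcs1, and in 1.43% of the 12203 genes with a promoter that were tested for DIP. The looser form TCACNCNAC, which includes all matches of the stricter one, was found in Hmgcs1 and Nsdhl and in 3.31% of those genes. The NF-Y box CCAAT was found in 14 of 15 enzymes with a promoter (93.3%) and in 42.9% of the tested genes. The Sp1 box GGGCGG was found in 14 of 15 enzymes as well, and in 63.0% of the tested genes. The E-box CACGTG was found in 6 of 22 members (27.3%) and 10.8% of the tested genes, and the E-box CAGGTG in 6 of 22 and 21.9%. A match describes letters in this window and does not show binding.

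The 6 stretches that follow were chosen because their genes carry the contrasts of the results. Hmgcs1 is the member with the strict sterol element, Idi1 and Cyp51 are enzymes lower with DIP, Insig1 and Insig2 are paralogs with different responses, and Abca1 is the exporter that separates the lines. Each runs 5′ to 3′ on the strand of the gene and ends before the listed start. Capitals mark the sterol element, the NF-Y box, the Sp1 box and CACGTG or their reverse complements. The Hmgcs1 stretch lies at chr13:119690104-119690342 (plus strand), that of Idi1 at chr13:8885527-8885605 (plus), that of Cyp51 at chr5:4104712-4104842 (minus) and that of Insig1 at chr5:28071173-28071326 (plus). The Insig2 stretch lies at chr1:121332604-121332735 (minus), before the most upstream of 3 listed starts, and that of Abca1 at chr4:53159977-53160068 (minus).
Hmgcs1: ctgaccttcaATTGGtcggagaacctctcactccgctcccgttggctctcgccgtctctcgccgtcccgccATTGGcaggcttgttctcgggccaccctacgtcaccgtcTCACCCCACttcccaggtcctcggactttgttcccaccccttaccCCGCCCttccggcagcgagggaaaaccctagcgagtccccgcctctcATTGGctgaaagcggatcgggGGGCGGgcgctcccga
Idi1: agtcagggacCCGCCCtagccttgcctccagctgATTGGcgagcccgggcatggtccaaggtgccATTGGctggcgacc
Cyp51: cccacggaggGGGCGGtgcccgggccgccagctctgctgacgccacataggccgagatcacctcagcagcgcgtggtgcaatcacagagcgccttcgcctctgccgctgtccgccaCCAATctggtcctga
Insig1: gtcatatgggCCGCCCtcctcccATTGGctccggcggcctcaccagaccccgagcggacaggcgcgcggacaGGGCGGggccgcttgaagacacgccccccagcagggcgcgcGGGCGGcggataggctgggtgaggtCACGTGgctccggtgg
Insig2: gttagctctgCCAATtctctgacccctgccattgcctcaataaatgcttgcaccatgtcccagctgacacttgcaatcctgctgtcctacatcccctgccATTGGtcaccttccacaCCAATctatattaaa
Abca1: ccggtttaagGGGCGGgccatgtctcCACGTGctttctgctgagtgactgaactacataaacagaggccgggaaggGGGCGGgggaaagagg
The Hmgcs1 stretch holds the sterol element, 3 CCAAT boxes and 2 GGGCGG boxes, and that of Idi1 holds 2 CCAAT boxes and 1 GGGCGG box within 79 bases. The Abca1 stretch holds no CCAAT box.

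Libraries held between 134117581 and 222065843 counts. Members had between 18 counts (Abca1 in a 4T1 library) and 48481 counts (Fdps in a 4T1 library). Levels are given as CPM, counts scaled to the size of the library with TMM factors. Markers of other cell types were read in each library. Of the 5 leukocyte genes, Ptprc, Adgre1 and Cd3e were at most 0.0613 CPM in any library, with Adgre1 and Cd3e at 0 in all 8 4T1 libraries, and Cd79a was at most 0.217 CPM. The leukocyte gene Cd68, a lysosomal protein also made by other cells, was higher. It ran from 1.60 to 3.02 CPM in HC11 DOX, from 2.70 to 12.4 CPM with DIP, where libraries 8 and 10 were the highest (12.4 and 10.8 CPM), and from 3.57 to 9.41 CPM in 4T1. The adipocyte list (4 genes) and Cdh5, Kdr and Tek of endothelium were near 0, and Pecam1 reached 5.21 CPM in HC11 DOX. Epithelial genes were present in every library (6 of 6 listed). The summed level of 5 fibroblast genes was 14.2 to 41.5 CPM in HC11 DOX, 19.6 to 249 CPM with DIP and 8.27 to 12.9 CPM in 4T1. By group mean its main gene with DIP was Dcn, at a median of 41.4 CPM against 2.87 CPM without, and Fap was at most 0.191 CPM. In DIP libraries 7, 8 and 10 Pdgfrb was above Dcn (53.1, 17.7 and 16.7 CPM against 48.9, 1.28 and 1.70 CPM). The source of the fibroblast and Cd68 signals was not tested. In bulk RNA, fewer cells of a type and less RNA per cell cannot be told apart.

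Some libraries stood apart from others of their group. With DIP, libraries 8 and 10 had the lowest mean level of glucocorticoid targets (mean log2 CPM over 8 genes of 4.14 and 4.19, against a group median of 6.38). Tsc22d3 stood at 34.2 and 47.7 CPM there, against 239.9 to 433 CPM in the other 8. In HC11 DOX, libraries 7 to 10 had the highest summed level of the 18 enzymes, from 859 to 1074 CPM, against 635 to 767 CPM in libraries 1 to 6. With DIP, libraries 7 to 10 were the highest too, from 698 to 728 CPM, against 464 to 653 CPM in libraries 1 to 6. Fits given below without HC11 DOX libraries 7 to 10 kept DIP libraries 7 to 10, so that omission was not balanced. In 4T1, libraries 5 to 8 had the highest, from 1679 to 1904 CPM, against 1117 to 1432 CPM in libraries 1 to 4. The summed level of 10 proliferation genes in HC11 DOX was 2471 to 2628 CPM in libraries 7 to 10 and 1669 to 2317 CPM in libraries 1 to 6. The labels do not separate these libraries, so they were neither grouped nor compared by a test. In 4T1, libraries 1 and 2 had the highest Krt5, a basal keratin of HC11, at 64.8 and 95.5 CPM against 10.8 to 25.2 CPM in the other 6 and a mean of 3054 CPM in HC11 DOX. The 5 basal genes typical of HC11 were lower in 4T1, 5 of 5.

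**Figure D1:**
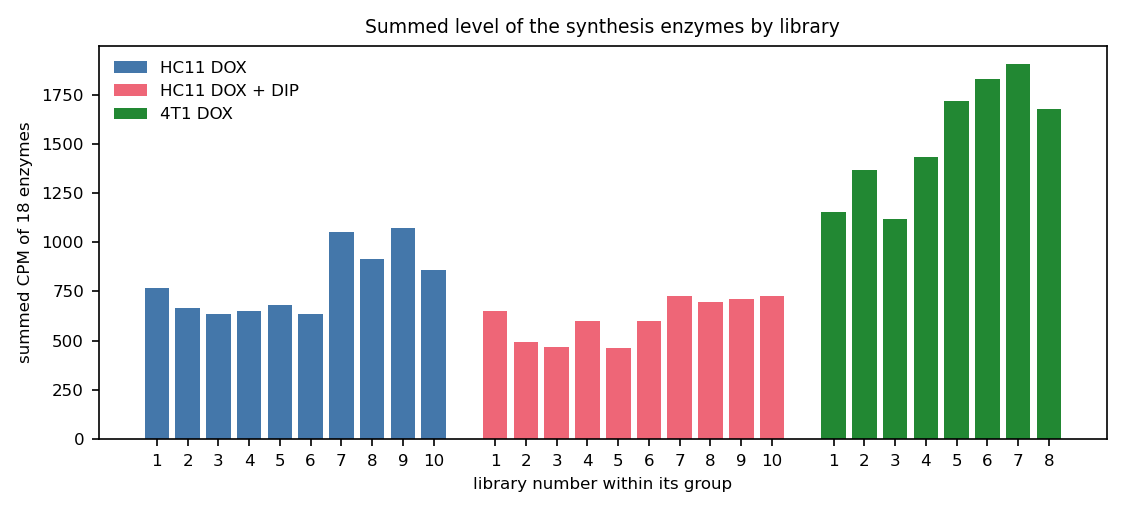
Summed level (CPM, linear axis from 0) of the 18 cholesterol synthesis enzymes in each library, coloured by group and numbered within the group. The 8 4T1 bars lie between 1117 and 1904 CPM, above the 1074 CPM of the highest HC11 DOX library.

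The comparison of HC11 with and without DIP sets the libraries labelled DOX + DIP against those labelled DOX. Of the 7 enzymes of the early, mevalonate part of the pathway 6 fell, Srebf2 fell, and the export genes and Insig2 rose. Of the 27 members, 12 were lower (44.4%) and 7 higher (25.9%) with DIP, where 21.0% of all 23829 genes tested were lower and 24.5% higher. Genes were called by the quasi-likelihood test of edgeR at an adjusted p under 0.05 (Benjamini-Hochberg, over all genes). The share higher was near that of all genes. The median log2 fold change of the members was -0.05, against 0.06 over all genes. Without DIP libraries 8 and 10 the counts were again 12 lower and 7 higher. The 10 proliferation genes all fell in the same comparison, with Mki67 going from 287 ± 92.9 (SD, n = 10) to 10.7 ± 8.15 CPM (n = 10), and their part in the sterol genes was not tested. Of the 8 glucocorticoid targets 7 rose, and of 5 basal genes 4 fell. Among the marker lists, 3 of 4 fibroblast genes tested, 1 of 2 leukocyte genes and 1 of 6 epithelial genes were higher, 3 epithelial genes and the 1 endothelial gene tested were lower, and 0 adipocyte genes could be tested.

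Of the 7 enzymes from acetyl-CoA to farnesyl diphosphate, 6 fell and 0 rose (median log2 fold change -0.74). Idi1, the isomerase that makes dimethylallyl diphosphate, ran from 11.9 to 70.6 CPM without DIP (median 43.9) and from 8.41 to 15.3 CPM with it (median 10.8). A single DOX library, number 5 at 11.9 CPM, lay inside the DIP range, and the next lowest was at 25.3 CPM. Its log2 fold change was -1.95 ± 0.25 (SE, adjusted p = 2.23e-06 by edgeR), a 3.85-fold fall. Acat2, the cytosolic thiolase that starts the pathway, ran from 55.5 to 100.3 CPM without DIP (median 71.4) and from 29.1 to 46.6 CPM with it (median 40.2). These groups did not overlap, which held for 6.66% of all genes in the lower direction, and the log2 fold change was -0.92 ± 0.12 (adjusted p = 1.52e-06). Acat2 shares 97.7% identity over 1477 bases with its paralog Acat3, and 98.7% over 445 bases with Tcp1. Acat3 had 1.09 to 2.71 times the Acat2 count and Tcp1 3.37 to 12.5 times, so that reads of these genes may be mixed. Idi1 shares 100% identity over 684 bases with Gm13502, which had 0.103 to 0.183 times the Idi1 count.

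Hmgcs1, the HMG-CoA synthase whose promoter carries the sterol element above, fell 1.51-fold, from 74.8 ± 9.58 to 48.8 ± 6.10 CPM (adjusted p = 2.63e-05 by edgeR). DOX library 5 was again the lowest of its group, at 54.4 CPM, and DIP libraries 8 (57.8 CPM) and 9 (57.7 CPM) lay above it. The kinase genes Mvk and Pmvk fell by 0.62 and 0.77 on the log2 scale. Fdps, which makes farnesyl diphosphate, fell 1.67-fold (adjusted p = 0.0141), from a range of 43.1 to 128 CPM to one of 23.0 to 72.0 CPM. Libraries 8 and 10 were the highest DIP libraries for Fdps, at 65.6 and 72.0 CPM, and without them its log2 fold change was -1.0. Without HC11 DOX libraries 7 to 10, the highest without DIP, it was -0.31 and was not called (adjusted p = 0.345). Fdps counts are uncertain, since Gm43738 overlaps it on the same strand and had 0.874 to 1.24 times its count. Mvd, the mevalonate diphosphate decarboxylase, did not pass the test at -0.05 ± 0.18.

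Of the 3 genes that lead to squalene and lanosterol, 1 fell and 2 did not pass the test. Fdft1, squalene synthase, fell 1.31-fold, from 38.0 ± 5.96 to 28.5 ± 6.61 CPM (adjusted p = 0.0202), and was not called without DOX libraries 7 to 10 (log2 fold change -0.29, adjusted p = 0.18). Its exons overlap those of Ctsb on the other strand over 774 bases, and Ctsb had 2.31 to 14.6 times its count. Sqle, the epoxidase that is a control point of the pathway, ran from 51.9 to 106 CPM without DIP (median 68.0) and from 39.0 to 117 CPM with it (median 70.0). DIP libraries 10 and 8 were the highest at 117 and 107 CPM, and library 2 was the lowest at 39.0 CPM. The log2 fold change of Sqle was 0.01 ± 0.20, and that of Lss, lanosterol synthase, 0.01 ± 0.18. Neither passed the test. Without libraries 8 and 10, Fdft1, Sqle and Lss were at -0.50, -0.21 and -0.20, and Fdft1 alone was called.

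**Figure D2:**
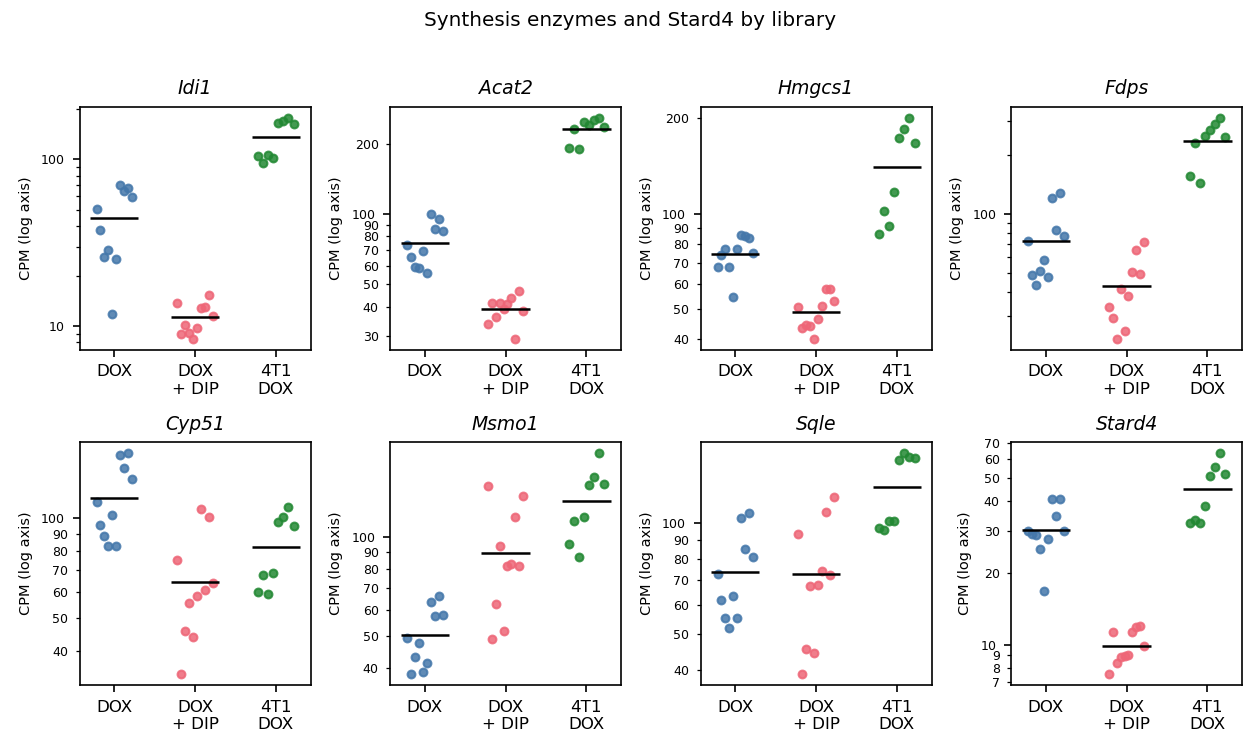
CPM (log axis) of 7 enzymes and Stard4 in each library of the 3 groups. Points are libraries in order of number from left to right, and the line is the group mean. Idi1 and Stard4 lie lowest with DIP, at means of 11.3 and 9.91 CPM, and the 8 4T1 libraries lie above all HC11 libraries for Acat2, Idi1, Hmgcs1 and Fdps.

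Among the 8 enzymes that turn lanosterol into cholesterol, 3 fell, 2 rose and 3 were not called. Cyp51, the lanosterol demethylase, ran from 82.3 to 157 CPM without DIP (median 107) and from 34.0 to 107 CPM with it (median 59.7). DIP libraries 7 and 9, at 107 and 101 CPM, lay inside the DOX range, and the other 8 were at most 74.7 CPM. The log2 fold change was -0.81 ± 0.19 (adjusted p = 0.00154), and -0.53 (adjusted p = 0.0596) without DOX libraries 7 to 10. Msmo1, a methylsterol oxidase that acts later than Cyp51 in this part of the pathway, went the other way. It ran from 38.4 to 66.4 CPM without DIP (median 48.5) and from 49.2 to 143 CPM with it (median 82.3), a log2 fold change of 0.85 ± 0.18 (adjusted p = 6.07e-04). DIP libraries 1, 10 and 8 were the highest, at 143, 134 and 115 CPM, while libraries 2, 5 and 3 (49.2, 52.0 and 62.9 CPM) lay inside the DOX range.

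Tm7sf2, a sterol reductase, rose 1.62-fold, from 9.37 ± 0.935 to 15.0 ± 4.13 CPM (adjusted p = 4.16e-04). DIP libraries 8 and 10, at 9.33 and 9.64 CPM, lay inside the DOX range of 7.76 to 10.6 CPM, and library 1 was close to it at 10.7 CPM. Tm7sf2 overlaps Vps51 on the same strand over 532 bases, and Vps51 had 1.78 to 4.96 times its count. Nsdhl and Ebp, a dehydrogenase and an isomerase of the later steps, fell by 0.64 and 0.66 on the log2 scale. Libraries 8 and 10 were the lowest for both, with Ebp at 8.24 and 10.1 CPM and the other 8 DIP libraries at 14.9 CPM or more. Dhcr7, the reductase of the last step, had a log2 fold change of 0.04 ± 0.17. Libraries 8 and 10 were its lowest as well, at 19.1 and 20.7 CPM, below every DOX library (31.1 CPM or more), as was library 1 at 26.4 CPM. Without libraries 8 and 10 the log2 fold change was 0.20 (adjusted p = 0.174). Hsd17b7 (0.10 ± 0.18) and Sc5d (-0.05 ± 0.11) did not pass the test.

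Of the 4 sensing genes, 1 rose, 1 fell and 2 did not pass the test. Srebf2 ran from 138 to 202 CPM without DIP (median 160.3) and from 59.1 to 166 CPM with it (median 84.3). DIP libraries 7 and 9 stood at 166 and 151 CPM, inside the DOX range, and the other 8 at 97.8 CPM or less. The log2 fold change was -0.77 ± 0.16 (adjusted p = 6.15e-04). Insig2 ran from 21.7 to 42.4 CPM without DIP (median 29.2) and from 47.7 to 156 CPM with it (median 71.0), with library 2 the highest. The groups did not overlap, as for 4.76% of all genes in the higher direction, and the log2 fold change was 1.36 ± 0.20 (adjusted p = 7.90e-06). Its paralog Insig1, itself a known SREBP target, did not pass the test at 0.42 ± 0.26 (adjusted p = 0.204). Insig1 spread widely with DIP, from 16.6 CPM in library 3 to 78.7 and 75.1 CPM in libraries 7 and 9. Scap stood at -0.26 ± 0.11 on the log2 scale and did not pass either (adjusted p = 0.063). Leaving out DOX library 4 or 6, or DIP library 5, 7 or 9, brought that p to between 0.018 and 0.0498.

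Stard4, which carries sterol between membranes inside the cell and is a known SREBP2 target, had the second largest fall of the members after Idi1. It ran from 16.8 to 40.7 CPM without DIP (median 29.5) and from 7.53 to 12 CPM with it (median 9.45), without overlap. The log2 fold change was -1.59 ± 0.14 (adjusted p = 6.33e-09). DOX library 5 was the lowest without DIP, as for Idi1, Hmgcs1 and Sc5d.

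All 4 genes of export and receptor turnover rose. Abcg1, which loads cholesterol onto lipoprotein particles, had the largest rise of the members, from a median of 1.97 CPM (1.06 to 4.40) to 14.1 CPM (3.30 to 31.4). Its log2 fold change was 2.60 ± 0.39 (adjusted p = 1.22e-05), or 6.05-fold. DIP libraries 8 and 10 stood at 3.71 and 3.30 CPM, inside the DOX range, and the other 8 at 8.75 CPM or more, so the overlap came from those libraries. Dcn, the fibroblast gene above, was low in the same libraries (1.28 and 1.70 CPM, against 24.8 CPM or more in the other 8), as were Pdgfra and Lum. Pdgfrb, at 17.7 and 16.7 CPM, lay inside the 3.93 to 53.1 CPM of the other 8, and Fap was highest in these libraries. The mean of the glucocorticoid targets was lowest there as well. Among those targets Per1, at 111 and 116 CPM, lay inside the 79.2 to 175 CPM of the other 8, as did Angptl4 in library 10. The part of either list was not tested. Abca1, which loads cholesterol onto apolipoproteins, had a median of 38.5 CPM without DIP (16.1 to 56.5) and 58.5 CPM with it (18.7 to 113). Libraries 10 and 8 were again the lowest with DIP, at 18.7 and 25.5 CPM. On the log2 scale the change was 0.86 ± 0.29 (adjusted p = 0.0205). It was not called in a fit of all 3 groups (adjusted p = 0.057) or without DOX libraries 7 to 10 (0.68, adjusted p = 0.127).

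Mylip went from 11.1 ± 4.14 to 24.4 ± 9.49 CPM, which is 1.15 ± 0.27 on the log2 scale (adjusted p = 0.00131). Libraries 8 and 10 were once more the lowest with DIP, at 9.01 and 7.66 CPM, and the other 8 lay at 21.2 CPM or more, above the highest DOX library (16.7 CPM). Nr1h2, the receptor gene, behaved more evenly. It ran from 37.3 to 47.1 CPM without DIP and from 54.5 to 74.9 CPM with it, without overlap, a log2 fold change of 0.69 ± 0.08 (adjusted p = 2.33e-07). Libraries 8 and 10 lay within its DIP range, at 70.4 and 72.0 CPM.

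**Figure D3:**
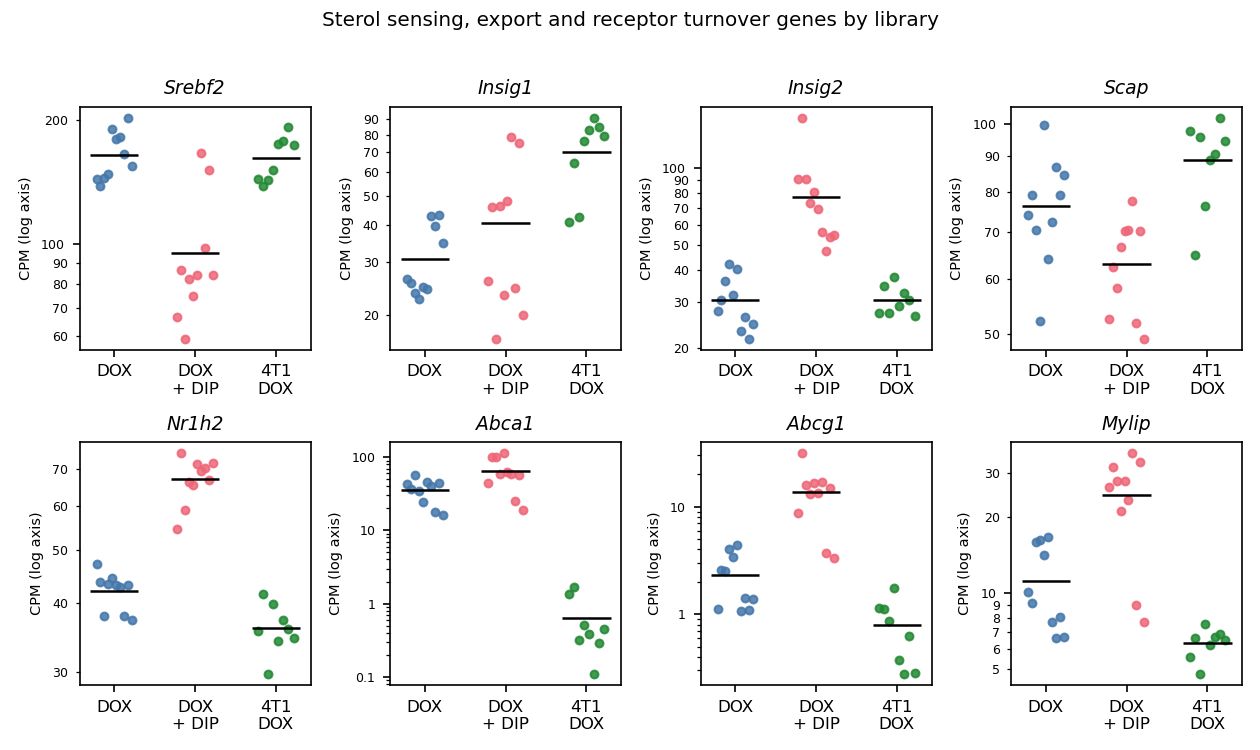
CPM (log axis) of the sensing, export and receptor turnover genes in each library of the 3 groups, with points in order of library number and the line at the group mean. With DIP, Insig2 and Nr1h2 lie above all DOX libraries, libraries 8 and 10 lie low for Abca1, Abcg1 and Mylip, and all 8 4T1 libraries are at 1.66 CPM or less for Abca1.

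The next comparison sets the cancer line 4T1 against HC11, both labelled DOX, and asks how the lines differ in sterol genes. Synthesis enzymes were higher in 4T1 and export genes lower. Of the 27 members, 17 were higher (63.0%) and 5 lower (18.5%), where 34.3% of all 23875 genes tested were higher and 35.6% lower by the same edgeR test. The median log2 fold change of the members was 0.45, against -0.01 over all genes. Of the 18 enzymes, 15 were higher and 1 lower. The groups did not overlap for 9 members in the higher direction and 1 in the lower, where 19.5% and 17.5% of all genes were so separated. Without 4T1 libraries 1 and 2 the counts were 18 higher and 4 lower, and without 4T1 libraries 5 to 8 they were 12 and 4. This comparison shares its HC11 DOX libraries with that of DIP. The proliferation list was higher as well, 7 of 10 with 1 lower, and its part was not tested. Of 8 glucocorticoid targets, 7 of them tested, 2 were higher and 4 lower. In the marker lists, 3 of 4 fibroblast genes, 1 of 2 leukocyte genes, 3 of 6 epithelial genes and the 1 endothelial gene tested were lower, and 2 epithelial genes and 1 leukocyte gene were higher.

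All 7 enzymes from acetyl-CoA to farnesyl diphosphate were higher in 4T1. Acat2 ran from 189.8 to 258 CPM in 4T1 (median 239), beyond the 100.3 CPM of the highest HC11 DOX library, a log2 fold change of 1.61 ± 0.11 (adjusted p = 9.43e-11). Idi1 ran from 95.8 to 177 CPM (median 135) against 11.9 to 70.6 CPM. Libraries 1 to 4 lay at 95.8 to 106 CPM and libraries 5 to 8 at 163 to 177 CPM, and each set lay above every HC11 library. This was 1.61 ± 0.27 on the log2 scale (adjusted p = 2.63e-05), and 1.22 without libraries 5 to 8. Fdps had the largest rise of the members at 1.69 ± 0.21, from 72.9 ± 30.3 CPM (SD, n = 10) to 238 ± 59.0 CPM (n = 8), under the limit on its counts given above. Its 4T1 libraries 1 and 3 were the lowest, at 157 and 145 CPM, and the other 6 lay between 231 and 310.3 CPM.

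Hmgcs1 went from a median of 75.9 CPM in HC11 DOX (54.4 to 85.4) to 142 CPM in 4T1 (86.0 to 200.5). The lowest 4T1 library, at 86.0 CPM, lay just above the highest HC11 library, at 85.4 CPM, so the separation was narrow. The log2 fold change was 0.89 ± 0.15 (adjusted p = 3.73e-05), and 0.42 (adjusted p = 0.00522) without libraries 5 to 8. Mvk (0.41 ± 0.10), Pmvk (0.35 ± 0.13) and Mvd (0.45 ± 0.17) were higher by less, with overlap. Scaled by total counts, without TMM factors, these 3 were at 0.18, 0.12 and 0.22 and were not called. Leaving out HC11 DOX library 5 or 4T1 library 7 ended the call of Pmvk (highest adjusted p = 0.081). Leaving out 4T1 library 6, 7 or 8 ended that of Mvd (highest adjusted p = 0.0604).

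Fdft1 stood at 99.9 ± 17.2 CPM in 4T1 against 38.0 ± 5.96 CPM, without overlap, a log2 fold change of 1.37 ± 0.11 (adjusted p = 6.67e-10). Sqle ran from 95.8 to 154 CPM (median 125) against 51.9 to 106 CPM (median 68.0). Libraries 1 to 4 lay at 95.8 to 101 CPM, inside the HC11 range, and libraries 5 to 8 at 148 to 154 CPM, beyond it. Its log2 fold change was 0.75 ± 0.15 (adjusted p = 2.33e-04). Lss did not pass the test at 0.00 ± 0.17, and Dhcr7 did not at -0.05 ± 0.10.

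Among the later enzymes, Msmo1, Tm7sf2, Nsdhl and Ebp were higher without overlap. Msmo1 ran from 87.1 to 180.2 CPM (median 129.6) against 38.4 to 66.4 CPM, higher by 1.34 ± 0.14 on the log2 scale (adjusted p = 4.89e-08). Nsdhl, at 30.5 to 34.2 CPM in libraries 1 to 4 and 45.7 to 54.1 CPM in libraries 5 to 8, was higher by 1.03 ± 0.13 (adjusted p = 5.07e-07). Tm7sf2 was 2.15-fold and Ebp 1.81-fold higher. Hsd17b7 was 1.94-fold higher, with 4T1 libraries 2 and 4 (10.1 and 8.96 CPM) near the HC11 median of 8.84 CPM and the other 6 at 17.0 CPM or more. Sc5d was 1.22-fold higher (adjusted p = 0.0298), a call that was lost when HC11 DOX library 3 or 5 or 4T1 library 5, 6, 7 or 8 was left out (highest adjusted p = 0.104).

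Cyp51 was the enzyme that was lower in 4T1. It ran from 59.3 to 108 CPM (median 81.6) against 82.3 to 157 CPM in HC11 DOX (median 107), with a log2 fold change of -0.50 ± 0.16 (adjusted p = 0.00872). Libraries 1 to 4 lay at 59.3 to 68.5 CPM, below every HC11 DOX library, and libraries 5 to 8 at 94.7 to 108 CPM, inside their range. The call was lost without 4T1 libraries 1 and 2 (-0.38, adjusted p = 0.0594) and without HC11 DOX libraries 7 to 10 (-0.24, adjusted p = 0.17). Cyp51 overlaps Akap9 on the other strand over 166 bases.

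In the sensing group Insig1 was 2.26-fold higher in 4T1, at 40.9 to 90.9 CPM (median 77.5) against 22.6 to 43.1 CPM (log2 fold change 1.18 ± 0.17, adjusted p = 4.76e-06). Libraries 1 and 3, at 40.9 and 42.5 CPM, lay inside the HC11 range, and they were also the lowest for Fdps. Insig2 did not pass the test at -0.02 ± 0.13, with 26.5 to 37.6 CPM in 4T1 and 21.7 to 42.4 CPM in HC11 DOX. Srebf2 did not pass at -0.05 ± 0.09, with 162 ± 20.1 CPM in 4T1 and 165 ± 22.2 CPM in HC11 DOX. Scap did not pass at 0.20 ± 0.11 (adjusted p = 0.108), and was called at 0.26 (adjusted p = 0.0374) without libraries 1 and 2. Leaving out 4T1 library 2 or 4 alone also brought Scap past the threshold. Stard4 was 1.45-fold higher, at 32.4 to 63.3 CPM against 16.8 to 40.7 CPM (adjusted p = 0.00556), and was not called without libraries 5 to 8 (0.18, adjusted p = 0.395).

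Abca1 had the largest difference of the members. It ran from 0.109 to 1.66 CPM in 4T1 (median 0.415), from 18 to 265 counts, and from 16.1 to 56.5 CPM in HC11 DOX (median 38.5). Abca1 thus stood at -5.86 ± 0.48 on the log2 scale (adjusted p = 1.35e-09), a 58.0-fold difference. Libraries 2 and 1 held the most, at 1.66 and 1.36 CPM, and the other 6 at most 0.504 CPM. These were also the libraries with the most Krt5, and the part of that signal was not tested. Without libraries 1 and 2 the log2 fold change was -6.72. Abcg1 was 2.96-fold lower, at 0.278 to 1.74 CPM against 1.06 to 4.40 CPM (log2 fold change -1.56 ± 0.40, adjusted p = 0.00174). It was not called without libraries 5 to 8 (-0.91, adjusted p = 0.0702). Mylip was 1.79-fold lower, at 6.35 ± 0.850 CPM against 11.1 ± 4.14 CPM (adjusted p = 9.14e-04). Nr1h2 was 1.19-fold lower, at 36.1 ± 3.67 CPM against 42.1 ± 3.28 CPM (adjusted p = 0.00374). It was not called without libraries 5 to 8 (-0.19, adjusted p = 0.12).

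**Figure D4:**
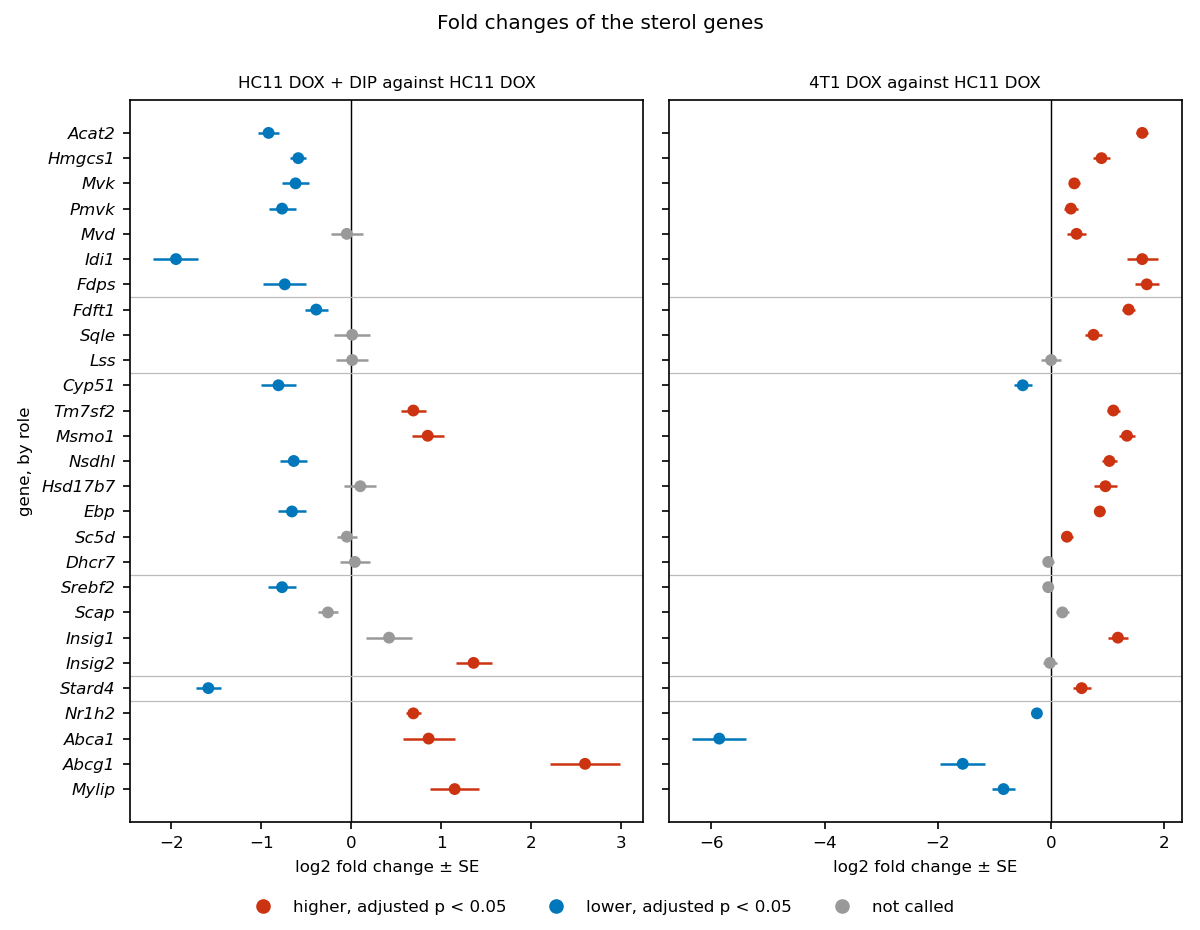
Log2 fold changes ± SE of the 27 members by role, with DIP against without in HC11 (left) and 4T1 against HC11 DOX (right), on separate horizontal scales. Red and blue points passed an adjusted p of 0.05 and grey points did not. Abcg1 lies at 2.60 with DIP and Abca1 at -5.86 in 4T1.

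Set side by side, the values of some members differed in sign between the comparisons, which share the HC11 DOX libraries. Acat2 stood at -0.92 with DIP and 1.61 in 4T1, Idi1 at -1.95 and 1.61, Fdps at -0.74 and 1.69, Stard4 at -1.59 and 0.54, and Abca1 at 0.86 and -5.86. Msmo1 was higher in both (0.85 and 1.34), as was Tm7sf2 (0.69 and 1.10), and Cyp51 was lower in both (-0.81 and -0.50). Cyp51 and Msmo1 both act between lanosterol and cholesterol. Their mean levels were 115 and 50.4 CPM in HC11 DOX, 64.4 and 89.6 CPM with DIP, and 82.2 and 129 CPM in 4T1.

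**Figure D5:**
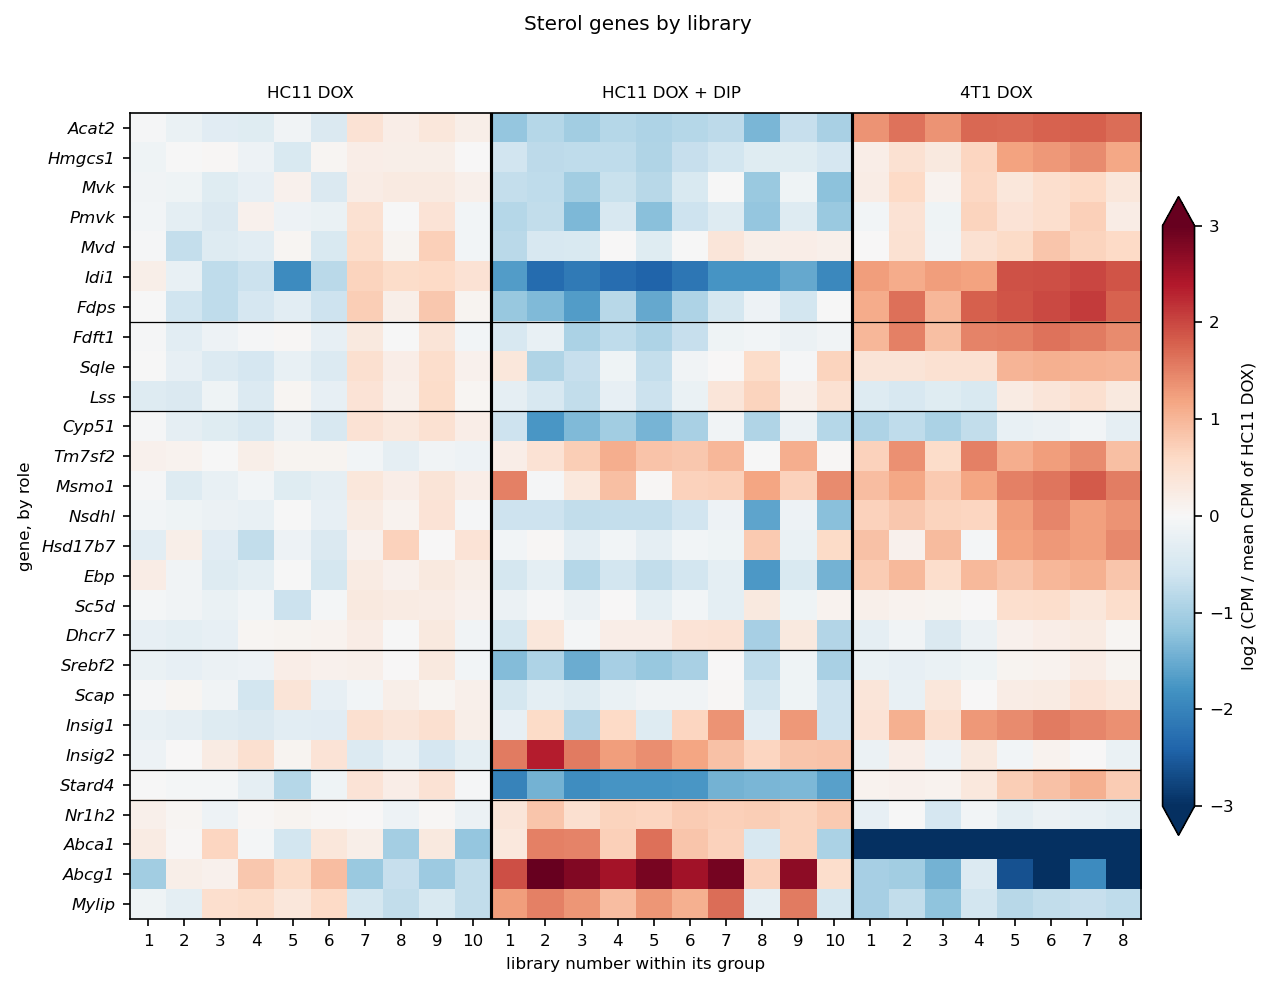
Level of each member in each library as log2 of its CPM over the mean CPM of HC11 DOX, with genes by role in rows and libraries in columns. The colour scale ends at -3 and 3. Abca1 is below the scale in all 8 4T1 libraries, and Idi1 and Stard4 are blue in all 10 DIP libraries.

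Levels of different genes were compared per kilobase of the longest coding transcript. In HC11 DOX the members ran from 0.395 CPM per kilobase for Abcg1 and 2.02 for Hsd17b7 to 33.2 for Acat2 and 52.8 for Fdps, with Srebf2 at 32.5. By this length Acat2 and Srebf2 were near each other in level, but per kilobase of all annotated exons they stood at 29.4 and 23.0. With DIP the highest were Msmo1 (43.8), Nr1h2 (33.6), Fdps (31.0) and Insig2 (28.7), and the lowest were Stard4 (1.94), Hsd17b7 (2.12) and Abcg1 (2.36). In 4T1 the highest were Fdps (172), Acat2 (103) and Msmo1 (63.1), and the lowest were Abcg1 (0.138) and Abca1 (0.0616). The order depends on the length used: per kilobase of all annotated exons, Acat2 ranked 1 in HC11 DOX and 4T1, and Insig2 ranked 1 with DIP. By that length Fdps ranked 10 with DIP and Msmo1 ranked 10 in 4T1. The limits on the counts of Fdps and Acat2 given above hold here too.

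Other sterol genes, from a list of 32 of which 31 matched and were tested, held 14 higher with DIP (45.2%, against 24.5% of all genes) and 7 lower (22.6%, against 21.0%). Their median was 0.28 on the log2 scale, against 0.06 over all genes. The share lower was near that of all genes. The largest changes reported by the rule for naming were those of Gramd1c and Lrp8. Gramd1c, of a family that moves sterol from the plasma membrane inward, went from 3.80 ± 1.12 to 22.2 ± 11.8 CPM, or 2.56 ± 0.41 on the log2 scale (adjusted p = 2.54e-05). DIP libraries 8 and 10, at 2.17 and 2.22 CPM, lay inside its DOX range of 1.38 to 5.57 CPM, and the other 8 at 18.4 CPM or more. Lrp8, a receptor of the lipoprotein receptor family and a known target of Mylip protein, went from 32.4 ± 8.61 to 5.81 ± 5.15 CPM, or -2.45 ± 0.35 on the log2 scale (adjusted p = 6.76e-06). Libraries 8 and 10 were the highest with DIP for Lrp8, at 17.8 and 12.7 CPM, and the other 8 were at 4.42 CPM or less.

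In 4T1 the same list held 13 higher and 13 lower of 31 (41.9% each), against 34.3% and 35.6% of all genes, with a median of 0.08 against -0.01. These shares were not far from those of all genes. Vldlr, another receptor that Mylip protein is known to target, was 14.8-fold lower, at 2.02 to 6.15 CPM against 23.2 to 97.1 CPM in HC11 DOX (log2 fold change -3.88 ± 0.35, adjusted p = 5.28e-09). Soat1, which esterifies cholesterol for storage, was higher without overlap, at 59.7 ± 5.98 CPM against 10.2 ± 1.01 CPM (2.52 ± 0.08, adjusted p = 9.33e-16). Npc2, which hands cholesterol out of the lysosome, stood at 208 ± 48.7 CPM against 43.1 ± 9.12 CPM (2.24 ± 0.14, adjusted p = 3.77e-11). Its 4T1 libraries 2 and 4 were the highest, at 261 and 304 CPM.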

How the data were processed

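Per the labels' protocols, libraries were made from TRIzol-extracted total RNA depleted of ribosomal RNA. The deposited values are raw read counts per gene, 1 file per library. Per the submitters' processing notes, fastp 0.23.2, featureCounts 2.0.1 and the build GRCm39 were used. The aligner is not given in the sources used here, nor is the strand setting, so reads of genes that overlap on opposite strands cannot be told apart. Library numbers follow series order and serve as names. Libraries of 1 group differed by more than sampling noise (chi-square over its degrees of freedom at least 16.3), so none was taken for a copy. This does not show that they came from separate cultures. Some pairs were much closer than others. With DIP, libraries 7 and 9 were at 30.9 and libraries 2 and 10 at 2134. In HC11 DOX, libraries 7 and 9 were at 46.3 and libraries 5 and 8 at 690. The tests treat all libraries of a group as independent.

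Symbols and lengths came from GENCODE vM21, which is on another build and named 52073 identifiers. Each comparison was fitted with edgeR 4.0.16 (R 4.3.3) on its own groups: filterByExpr, TMM factors, glmQLFit (robust), glmQLFTest and Benjamini-Hochberg adjustment over all genes, with calls at an adjusted p under 0.05. Standard errors are the log2 fold change over the square root of F. CPM used TMM factors over 28 libraries, and mean log2 CPM a prior count of 2. Near-identical transcripts were found with blastn 2.17.0 (at least 90% identity over 200 bases). The procedure was tested on simulated data, with known changes placed in randomly chosen genes. For DIP it recovered 22.4% of 1.5-fold, 58.2% of 2-fold and 89.4% of 4-fold changes. For 4T1 it recovered 31.3%, 55.2% and 93.9%. A member that did not pass the test may therefore still differ by a small fold.

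The members, lists (steps of the pathway, other sterol genes, markers of epithelium, fibroblasts, leukocytes, endothelium and adipocytes, proliferation, glucocorticoid targets, HC11 basal genes) and alternatives were chosen with earlier results of these data known. Genes named were all members and, of the other sterol genes, the 3 called ones with the largest change at a mean log2 CPM of at least 2. With DIP, 1 gene that this rule names is not reported here. Alternatives were RLE and upper-quartile factors, total counts, DESeq2 1.42.0, limma 3.58.1 (voom), no filter, all 3 groups in one fit, and libraries left out. Leaving out HC11 DOX libraries 7 to 10 or 4T1 libraries 5 to 8 was chosen after seeing the data.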

Additional observations from a re-analysis of the deposited data

Results flagged for a closer look

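A library stood apart from the rest of its group, by the gap to its nearest neighbour over the group's range on the log2 scale, for 2 of 81 combinations of member and group. Chance flags about 1 in 20. Both were low values in HC11 DOX library 5: Hmgcs1 at 54.4 CPM, with the next library at 67.7 CPM, and Sc5d at 21.6 CPM, with the next at 29.4 CPM. The same library had the lowest Mki67 of its group, at 87.9 CPM, but the proliferation list was mixed there. Top2a, Cenpf and Ccnb1 were also the lowest of the group, at 207, 24.4 and 108 CPM, and Ccna2 (582 CPM) lay below its group mean. Aurkb was the highest, at 116 CPM. Bub1b, Cdc20, Plk1 and Birc5, at 128, 135, 133 and 148 CPM, lay above their group means.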

How the results depend on the processing

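With DIP, 535 of 540 calls of single members were the same when 1 library at a time was left out, and 213 of 216 under other scalings, tools, filters and fits or without libraries 8 and 10. The exceptions were Scap and, in the fit of all 3 groups, Abca1. For 4T1 these counts were 473 of 486 and 206 of 216 (there without libraries 1 and 2). Leaving out single libraries moved the members called with DIP between 12 and 13 lower, with 7 higher each time, and for 4T1 between 14 and 18 higher, with 5 lower each time. Some libraries were close to another of their group, such as 7 and 9 in both HC11 groups. Leaving out 1 of such a pair kept the other, so single omissions are a limited check. Total counts shifted the 4T1 median of all genes from -0.01 to -0.24 and that of the members from 0.45 to 0.22, and there Mvk, Pmvk, Mvd, Sc5d and Stard4 were not called while Srebf2 and Dhcr7 were called lower (-0.28 each). Without HC11 DOX libraries 7 to 10, the members' median turned from -0.05 to 0.10 with DIP (9 lower, 6 higher) and went to 0.70 for 4T1. Without 4T1 libraries 5 to 8 it was 0.28, and there Lss was called lower (-0.41, adjusted p = 0.0448). Pmvk, Mvd, Hsd17b7, Sc5d, Stard4, Nr1h2 and Abcg1 were not called there. These libraries were chosen for their high enzyme levels, so leaving them out lowers the mean of their group by construction: a smaller fall with DIP and a larger 4T1 difference without the HC11 libraries, a smaller 4T1 difference without the 4T1 libraries. DIP libraries 7 to 10, which also had the highest summed enzyme level of their group, were kept. Calls lost with DIP under that omission therefore do not show whether the DIP difference is weak. No paired analysis was possible because the labels give no replicate numbers. Depth limits mainly Abca1 and Abcg1 in 4T1, with at least 18 and 46 counts a library.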
